A study of Mus musculus with 14 samples.

Results

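The 10 genes described here, Tyr, Tyrp1, Dct, Pmel, Mlana, Oca2, Slc45a2, Slc24a5, Gpr143 and Mitf, are the core pigment genes of melanocytes, and their rows were taken by symbol from a table of 56691 gene IDs. All 10 were found in the table. The study profiled RNA of whole mouse paws, after depletion of ribosomal RNA, in 14 libraries labelled by genotype and postnatal day. Mice labelled Krt9-/-, called Krt9 null here, gave 3 libraries on day 3 (P3) and 2 on the day of birth (P0), and wild-type mice (WT) gave 5 libraries on P3 and 4 on P0. Krt9 is a keratin of palm and sole epidermis. The labels used here do not give the type of the Krt9 allele, the strain or coat colour of the mice, or whether a library is 1 animal.

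Melanocytes are neural crest cells that make melanin inside melanosomes, organelles that are passed on to keratinocytes of the hair and skin. Tyr, Tyrp1 and Dct are the enzymes of melanin synthesis. Pmel and Mlana build the melanosome, Oca2, Slc45a2 and Slc24a5 are membrane transporters that set its inner milieu, and Gpr143 is a receptor in its membrane. Mitf is the transcription factor that drives most of these genes in melanocytes, and it binds short E-box sequences, of which TCATGTG is a well-known form in pigment gene promoters. Mitf also works in mast cells and osteoclasts, which whole paws contain. In mouse skin most melanocytes after birth sit in the bulbs of growing hair follicles.

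The 250 bases before the transcription start were read from RefSeq (GRCm38.p6) for the members that had an entry, 6 of 10, with 3 start sites for Mitf. Shown are Tyr, Tyrp1 and Oca2, which were higher on P3 in paws of both genotypes, and Dct and Slc24a5, which passed that test in WT paws. Capitals mark TCATGTG, or CACATGA where the match lies on the opposite strand, and each window runs 5′ to 3′ on the strand of its gene.
Tyr, chr7:87493513-87493762, minus strand: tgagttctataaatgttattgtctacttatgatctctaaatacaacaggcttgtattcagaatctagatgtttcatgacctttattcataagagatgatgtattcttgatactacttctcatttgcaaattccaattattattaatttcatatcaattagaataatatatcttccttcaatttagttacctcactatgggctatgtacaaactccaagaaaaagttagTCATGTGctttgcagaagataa
Tyrp1, chr4:80833963-80834212, plus strand: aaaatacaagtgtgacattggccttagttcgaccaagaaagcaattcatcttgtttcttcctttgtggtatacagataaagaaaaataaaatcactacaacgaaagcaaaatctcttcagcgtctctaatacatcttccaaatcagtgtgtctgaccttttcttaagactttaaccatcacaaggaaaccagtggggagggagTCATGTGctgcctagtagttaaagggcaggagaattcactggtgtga
Dct, chr14:118052247-118052496, minus strand: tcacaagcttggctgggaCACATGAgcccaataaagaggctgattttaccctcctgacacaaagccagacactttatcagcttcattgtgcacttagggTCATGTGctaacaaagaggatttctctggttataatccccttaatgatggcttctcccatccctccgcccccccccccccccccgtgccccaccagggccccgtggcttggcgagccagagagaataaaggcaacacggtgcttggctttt
Oca2, chr7:56239509-56239758, plus strand: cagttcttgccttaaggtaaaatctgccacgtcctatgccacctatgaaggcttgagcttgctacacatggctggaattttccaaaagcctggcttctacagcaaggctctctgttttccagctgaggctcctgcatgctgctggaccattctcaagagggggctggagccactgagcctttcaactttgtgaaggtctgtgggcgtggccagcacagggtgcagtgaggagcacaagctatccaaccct
Slc24a5, chr2:125067877-125068126, plus strand: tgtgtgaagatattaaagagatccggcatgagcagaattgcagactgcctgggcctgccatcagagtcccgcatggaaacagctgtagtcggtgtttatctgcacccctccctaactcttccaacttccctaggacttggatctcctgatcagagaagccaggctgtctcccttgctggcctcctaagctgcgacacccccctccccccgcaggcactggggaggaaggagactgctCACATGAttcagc
The match begins 22 bases before the start site in Tyr and 47 bases before it in Tyrp1. Dct holds 2 matches, 1 on each strand, and Slc24a5 holds 1 on the opposite strand, 13 bases before its start. In all, 4 of the 6 members with a window, or 4 of their 8 windows, hold TCATGTG on either strand. Beside this, 3.25% of all 32851 windows of this length do (1068 windows). TCATGTG was chosen because it is known from pigment gene promoters, so this count is no independent test. The window of Oca2 and the 3 windows of Mitf hold no TCATGTG, although Oca2 holds the shorter CATGTG, as 12.25% of all windows do. The most downstream of the 3 Mitf windows holds 1 TGACGTCA, the cAMP response element, present in 1.55% of all windows. These are matches of letters only, and no binding was measured here.

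Totals ran from 28947715 to 41004173 counts per library. Krt9 itself was at 25.1, 7.73 and 11.5 CPM (counts per 1000000 counts, after TMM scaling) in Krt9 null paws and at 32.9 to 83.0 CPM in WT paws on P3, and at 6.08 and 5.31 CPM in Krt9 null and 2.09 to 7.61 CPM in WT paws on P0. Krt9 counts thus did not separate the genotype labels on P0, and reads outside a deleted segment would check nothing. Krt19, a keratin gene that is no member, was at 48.9 to 209 CPM in the 5 Krt9 null libraries and at 0.864 to 1.95 CPM in the 9 WT libraries. WT replicate 4 of P0 is labelled female and held 0.181 CPM of Xist and 0.155 CPM of the Y-linked Ddx3y, so results are also given without it where that changes a call. The table's columns form 2 alphabetical runs, called column blocks A (8 libraries) and B (6 libraries), which cut across the groups, and values within each block stand beside the pooled ones. Sox10, a transcription factor that marks neural crest derivatives, was at 8.92 CPM or more in every library. Rpe65, the defining gene of retinal pigment epithelium, the other pigment cell type, had no count in any library.

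Per length, Pmel was the most abundant pigment transcript in all 4 groups. Its level was 11.4 CPM per kilobase of exon in Krt9 null and 11.7 in WT paws on P3, and 5.16 in Krt9 null and 4.51 in WT paws on P0 (means of 3, 5, 2 and 4 libraries). On P3 Dct followed at 6.75 CPM per kilobase in Krt9 null and 6.56 in WT paws, and Tyrp1 at 5.53 in Krt9 null and 5.44 in WT paws. The ranges of Dct and Tyrp1 overlapped in both genotypes on P3, and those of Pmel and Dct in Krt9 null paws. Mitf, Mlana and Slc24a5 held the middle on P3, with levels per kilobase of 2.80, 2.34 and 1.51 in Krt9 null paws and 2.72, 3.23 and 1.67 in WT paws. On P0 the places after Pmel were held by Mitf, at 3.02 CPM per kilobase in Krt9 null and 2.32 in WT paws, and Dct, at 2.698 in Krt9 null and 2.20 in WT paws. The ranges of Mitf and Dct overlapped in both genotypes on P0. The tail of the order on P3 was Tyr, Slc45a2, Oca2 and Gpr143, with levels per kilobase of 1.18, 0.886, 0.434 and 0.202 in Krt9 null paws and 1.10, 0.957, 0.450 and 0.310 in WT paws. Each neighbour pair in that tail overlapped in range. Oca2 was last on P0, at 0.0104 CPM per kilobase in Krt9 null and 0.0138 in WT paws. In the order of WT means Tyrp1 held place 3 on P3 and place 6, below Slc24a5 and Mlana, on P0. Exon lengths are those of an annotation of another build (GENCODE M21), so these levels are approximate.

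**Figure D1:**
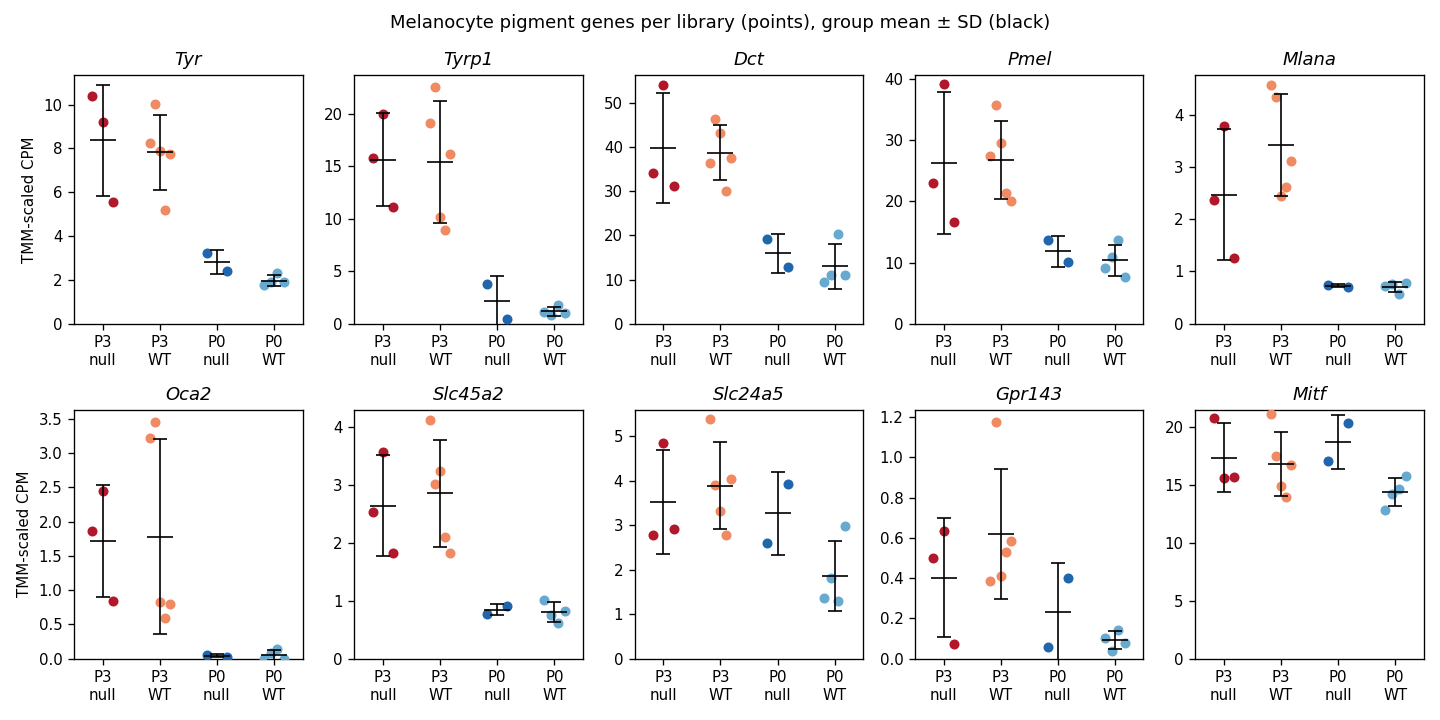
TMM-scaled CPM (linear axis from 0) of each pigment gene in each library, by day and genotype. Points are libraries, and the black dash and bars are the group mean ± SD (n = 3, 5, 2 and 4 from left to right). For Tyr, Tyrp1, Dct, Pmel, Mlana, Oca2 and Slc45a2 every P3 library of a genotype lies above every P0 library of that genotype, and for Mitf the days overlap in both genotypes.

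The main difference in the pigment genes lay between the days. In Krt9 null paws, with 3 libraries on P3 against 2 on P0, Tyr, Tyrp1 and Oca2 rose to P3 by edgeR's quasi-likelihood test (Benjamini-Hochberg adjusted p under 0.05 over all 21619 genes tested), 3 of the 10 beside 0.338% of all genes called higher. The median log2 fold change of the 10 was 1.52 there. In WT paws, with 5 libraries against 4, 9 of the 10 rose, where 8.49% of all genes tested were called higher, and the median of the 10 was 1.85. Over all genes the median was -0.01 in either genotype. Fitted folds of the 9 genes ran from 2.22 for Slc24a5 to 30.3 for Oca2 in WT paws. Oca2 and Gpr143 would not pass the count filter on the P0 libraries alone, so their calls follow in part from how they were kept, and of the other 8 genes 2 were called in Krt9 null and 7 in WT paws. Mitf, the regulator, was not called in either, at a log2 fold change of -0.10 (95% CI -0.52 to 0.32, adjusted p = 0.852) in Krt9 null and 0.21 (95% CI -0.10 to 0.53, adjusted p = 0.352) in WT paws. The levels are of whole paws, in which more cells of a type and more RNA per cell cannot be told apart. The 2 day comparisons come from separate libraries, and their difference was tested as an interaction, given with the genotype results.

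Among the enzymes, Tyr catalyses the rate-limiting oxidation of tyrosine. Tyr (ENSMUSG00000004651.7, chromosome 7) was at 10.4, 9.18 and 5.54 CPM on P3 and 3.21 and 2.42 CPM on P0 in Krt9 null paws. WT paws held 8.25, 10.01, 7.89, 5.18 and 7.75 CPM on P3 and 1.75, 1.92, 2.32 and 1.89 CPM on P0. In each genotype the lowest P3 paw lay above the highest P0 paw, with Krt9 null replicate 3 and WT replicate 4 the lowest of P3. The log2 fold change of P3 over P0 was 1.63 (SE 0.29, adjusted p = 0.0257) in Krt9 null paws and 1.94 (SE 0.21, adjusted p = 0.000332, a fold of 3.83) in WT paws. Tyr was the pigment gene with the smallest adjusted p in each genotype. Its Krt9 null call was lost in 5 of the alternatives, among them no sex term (1.57, adjusted p = 0.0596). It held with litter within a day (1.52, adjusted p = 0.0348) or litter number across days (1.64, adjusted p = 0.0264) as a replicate block.

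Tyrp1, an enzyme that acts late in eumelanin synthesis in the mouse, stood out by the size of its change. Tyrp1 (ENSMUSG00000005994.15, chromosome 4) was at 15.8, 19.996 and 11.1 CPM on P3 and 3.82 and 0.428 CPM on P0 in Krt9 null paws. In WT paws it was at 19.1, 22.6, 10.1, 8.93 and 16.2 CPM on P3 and at 1.12, 0.789, 1.82 and 1.01 CPM on P0. The 2 Krt9 null paws of P0 were the highest and the lowest of all 6 P0 libraries, so the spread within that group exceeded the WT spread. The log2 fold change was 3.27 (SE 0.64, adjusted p = 0.0398) in Krt9 null and 3.65 (SE 0.47, adjusted p = 0.000771, a fold of 12.6) in WT paws. The Krt9 null call was lost in 13 of the alternatives, among them litter within a day as a replicate block (3.18, adjusted p = 0.0945), and it held with litter number across days as the block (3.40, adjusted p = 0.0448).

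Dct, which converts dopachrome and is also an early melanoblast marker, had the highest CPM of the 10 genes on P3. Krt9 null paws held 34.2, 54.0 and 31.2 CPM of Dct (ENSMUSG00000022129.5, chromosome 14) on P3 and 19.0 and 12.8 CPM on P0. WT paws held 36.3, 46.4, 43.1, 30.1 and 37.5 CPM on P3 and 9.48, 11.1, 20.4 and 10.9 CPM on P0. The day ranges did not overlap in either genotype, and WT replicate 3 was the highest Dct library of P0. Dct differed by a log2 fold change of 1.40 (SE 0.32, adjusted p = 0.0603) in Krt9 null and 1.56 (SE 0.23, adjusted p = 0.00113) in WT paws.

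Of the melanosome proteins, Pmel forms the fibrils on which melanin is laid down. Pmel (ENSMUSG00000025359.11, chromosome 10) was at 22.9, 39.1 and 16.6 CPM on P3 and 13.6 and 10.05 CPM on P0 in Krt9 null paws. WT paws held 27.4, 35.7, 29.5, 21.4 and 20.04 CPM on P3 and 9.11, 10.8, 13.7 and 7.71 CPM on P0. P3 lay above P0 in every library of each genotype, by a log2 fold change of 1.23 (SE 0.33, adjusted p = 0.0960) in Krt9 null and 1.33 (SE 0.24, adjusted p = 0.00310) in WT paws. Exons of Cdk2 and Dgka, which run on the other strand, overlap 6.06% of its exon bases. The labels do not state whether counting used strand, so that part of Pmel is uncertain.

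Mlana, a small membrane protein needed for Pmel processing and a common melanocyte antigen, was at 2.37, 3.78 and 1.26 CPM on P3 and 0.746 and 0.705 CPM on P0 in Krt9 null paws (ENSMUSG00000024806.5, chromosome 19). WT paws held 4.56, 4.33, 2.44, 2.62 and 3.12 CPM on P3 and 0.731, 0.752, 0.571 and 0.776 CPM on P0. All 6 P0 libraries lay between 0.571 and 0.776 CPM, and the P3 libraries spread from 1.26 to 4.56 CPM. For Mlana the log2 fold change was 1.78 (SE 0.46, adjusted p = 0.0872) in Krt9 null and 2.25 (SE 0.34, adjusted p = 0.00120, a fold of 4.75) in WT paws.

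Among the transporters, Oca2, the product of the pink-eyed dilution locus of the mouse, was near the limit of detection on P0. Oca2 (ENSMUSG00000030450.12, chromosome 7) was at 1.87, 2.45 and 0.842 CPM in Krt9 null and 3.22, 3.46, 0.824, 0.598 and 0.803 CPM in WT paws on P3. On P0 its raw counts were 2 and 1 in Krt9 null and 0, 2, 4 and 0 in WT paws. A count of 0 allows up to 3 counts, or 0.0755 to 0.113 CPM at the depths of the P0 libraries. Pooled over libraries, the ratio of P3 to P0 was 43.9 (exact 95% interval 14.8 to 215, 172 counts against 3) in Krt9 null and 42.2 (19.2 to 116, 331 counts against 6) in WT paws. These intervals cover counting error only. The fitted log2 fold change, which depends on the prior count, was 5.63 (SE 1.14, adjusted p = 0.0373) in Krt9 null and 4.92 (SE 0.82, adjusted p = 0.00202) in WT paws. The Krt9 null call was lost in 11 of the alternatives, among them limma voom with no block (5.04, adjusted p = 0.153). The litter blocks were fitted in limma voom too. With litter within a day as a replicate block it was lost (4.47, adjusted p = 0.213), and with litter number across days as the block (5.08, adjusted p = 0.148). Within P3, WT replicates 1 and 2 held about the same level and the other 3 WT paws lay apart from them, at 0.824 CPM or less.

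Slc45a2, a transporter that keeps melanosome pH permissive for tyrosinase, was at 2.54, 3.56 and 1.83 CPM on P3 and 0.775 and 0.907 CPM on P0 in Krt9 null paws (ENSMUSG00000022243.11, chromosome 15). WT paws held 4.12, 3.01, 3.23, 2.09 and 1.82 CPM on P3 and 1.02, 0.752, 0.607 and 0.828 CPM on P0. The days did not overlap in either genotype. The log2 fold change was 1.69 (SE 0.42, adjusted p = 0.0765) in Krt9 null and 1.77 (SE 0.31, adjusted p = 0.00251) in WT paws.

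Slc24a5, an exchanger of sodium, calcium and potassium in the melanosome pathway, had the smallest of the called changes. Slc24a5 (ENSMUSG00000035183.15, chromosome 2) was at 2.79, 4.86 and 2.91 CPM on P3 and 2.61 and 3.93 CPM on P0 in Krt9 null paws. WT paws held 5.39, 3.90, 3.33, 2.79 and 4.04 CPM on P3 and 1.36, 1.80, 1.29 and 2.97 CPM on P0. The days overlapped in both genotypes. The log2 fold change was 0.06 (SE 0.38, adjusted p = 0.962) in Krt9 null and 1.15 (SE 0.30, adjusted p = 0.0183) in WT paws, and the WT call was lost without WT replicate 1, 2 or 3 of P0 (adjusted p = 0.0700, 0.0519 and 0.0782). Exons of Myef2 on the other strand overlap 39.53% of Slc24a5 exon bases. Myef2 was at 25.4 to 34.0 CPM on P3 and 32.3 to 53.2 CPM on P0, above Slc24a5 in every library, and its part in the Slc24a5 counts was not tested.

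Gpr143, the X-linked receptor of ocular albinism, was the least counted gene of the set on P3. Gpr143 (ENSMUSG00000025333.11) was at 0.502, 0.634 and 0.0702 CPM on P3 and 0.0574 and 0.403 CPM on P0 in Krt9 null paws, from 18, 21 and 2 counts and from 2 and 16 counts. WT paws held 0.385, 1.18, 0.412, 0.531 and 0.587 CPM on P3 and 0.104, 0.0376, 0.143 and 0.0776 CPM on P0. The Krt9 null days overlapped and the WT days did not. The pooled ratio of P3 to P0 was 1.74 (exact 95% interval 0.979 to 3.22) in Krt9 null and 7.08 (3.89 to 14.1) in WT paws, and these intervals too cover counting error only. Of the 18 Krt9 null counts of P0, 16 came from replicate 2. Leaving out 1 library at a time gave a fitted log2 fold change of -0.16 to 3.04 in Krt9 null paws. The fitted log2 fold change in WT paws was 2.72 (SE 0.75, adjusted p = 0.0239). That call was lost without WT replicate 1, 2 or 3 of P0 or WT replicate 2 of P3 (adjusted p = 0.0655, 0.0707, 0.0549 and 0.0674). It was also lost with litter within a day as a replicate block (log2 fold change 2.26, adjusted p = 0.0983) and with litter number across days as the block (2.58, adjusted p = 0.0502).

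Mitf (ENSMUSG00000035158.16, chromosome 6) was at 20.8, 15.6 and 15.7 CPM on P3 and 17.1 and 20.3 CPM on P0 in Krt9 null paws. WT paws held 21.1, 17.5, 14.9, 14.01 and 16.7 CPM on P3 and 12.9, 14.2, 14.6 and 15.8 CPM on P0. The days overlapped in both genotypes, and all 14 libraries lay between 12.9 and 21.1 CPM. The 95% interval of its difference allows at most a 1.25-fold higher level on P3 in Krt9 null paws and a 1.44-fold higher one in WT paws. Markers of mast cells were read in the same libraries. Their summed level was 915 to 1607 CPM in Krt9 null and 744 to 1370 CPM in WT paws on P3, and 1590 to 2930 CPM in Krt9 null and 1375 to 2869 CPM in WT paws on P0. The sums overlapped between the days in Krt9 null paws and did not in WT paws. Of 10 mast cell markers, 2 fell in Krt9 null paws, where 0.430% of all genes were called lower, and 4 in WT paws, where 8.07% were. Mcpt4, a mast cell chymase, was at -0.13 (log2, adjusted p = 0.864) in Krt9 null and 0.01 (adjusted p = 0.972) in WT paws, and Ms4a2, a chain of the IgE receptor, at -0.08 (adjusted p = 0.962) in Krt9 null and 0.73 (adjusted p = 0.188) in WT paws. These 2 genes were chosen for mention after their values were seen. Hdc, the histidine decarboxylase of mast cells, fell by 2.93 (log2, adjusted p = 0.0133) in Krt9 null and by 3.45 (adjusted p = 0.000332) in WT paws. Tpsab1, a mast cell tryptase, fell by 2.36 (adjusted p = 0.0208) in Krt9 null and by 2.24 (adjusted p = 0.000679) in WT paws. No mast cell marker was at 0 throughout a group, and how much of the Mitf count came from mast cells or osteoclasts was not tested.

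**Figure D2:**
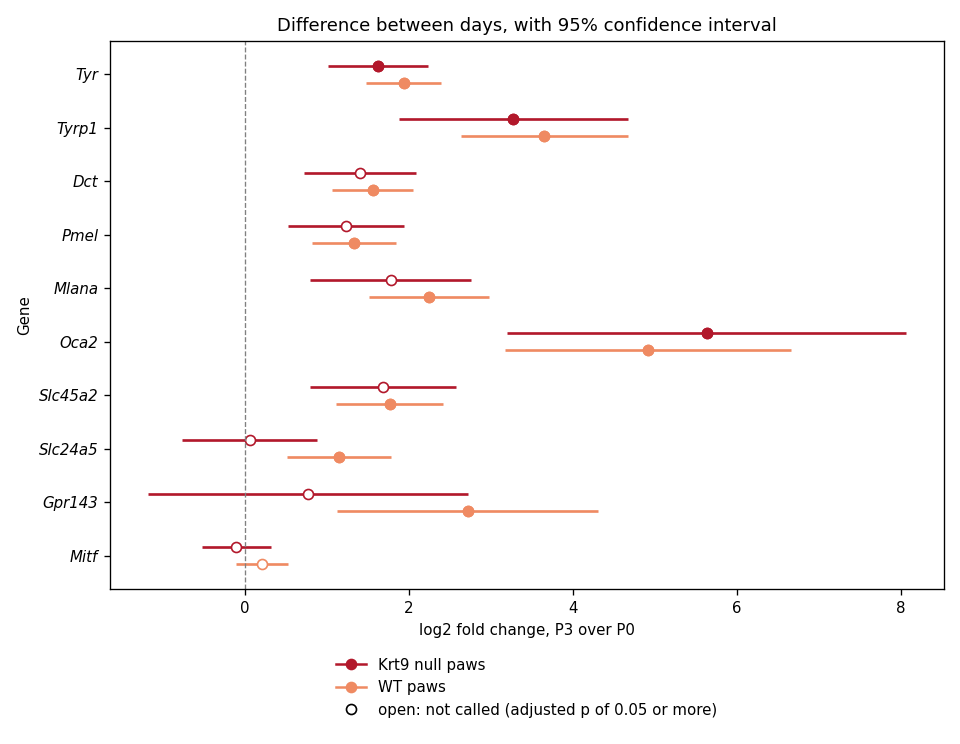
Fitted log2 fold change of P3 over P0 (horizontal axis) for each pigment gene, with 95% confidence intervals as lines, in Krt9 null (upper) and WT paws (lower); filled points passed an adjusted p of 0.05 and open points did not. In Krt9 null paws Tyr, Tyrp1 and Oca2 are filled, and in WT paws all genes but Mitf are.

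Every P3 library lay above every P0 library for 7 of the 10 genes in Krt9 null paws, beside 11.8% of all genes tested, and for 8 in WT paws, beside 8.96% of all genes tested. Oca2 is in both counts and Gpr143 in that of WT paws. Both genes passed the count filter only through P3, so their place in these counts follows in part from how they were kept. The Krt9 null calls rested on few libraries. With litter within a day as a replicate block 1 gene, Tyr, was called there (log2 fold change 1.52, adjusted p = 0.0348), and with the column block as a term 7 were. Without Krt9 null replicate 2 of P0 or Krt9 null replicate 1 of P3 none was called, and without Krt9 null replicate 1 of P0, Krt9 null replicate 3 of P3, or WT replicate 2 or 4 of P3, 1 was. Within column blocks, differences of mean log2(CPM + 0.5) between the days, with no test, were above 0 for 9 genes of block A and 7 of block B in Krt9 null paws (medians 1.48 and 0.92), and for all 10 of either block in WT paws (medians 1.45 and 1.63). Averaged over the genotypes, 7 genes rose, Oca2 again among them, beside 9.00% of all genes called higher. Slc24a5 (0.61, adjusted p = 0.10), Gpr143 (1.75, adjusted p = 0.0584) and Mitf (0.06, adjusted p = 0.802) were not called. Without WT replicate 4 of P0, Slc24a5 passed in that average (0.74, adjusted p = 0.0391), and Tyrp1 missed the threshold in Krt9 null paws (adjusted p = 0.0535).

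The unequal changes altered the make-up of the pigment gene counts, which add reads and so weight long transcripts more. The 10 genes summed to 118 ± 33.2 CPM in Krt9 null (SD, n = 3) and 118 ± 22.5 CPM in WT paws (n = 5) on P3, and to 56.5 ± 6.41 CPM in Krt9 null (n = 2) and 44.4 ± 7.82 CPM in WT paws (n = 4) on P0. Mitf took 10.2 to 18.2% of the sum in Krt9 null and 11.8 to 16.3% in WT paws on P3, and 28.0 to 39.1% in Krt9 null and 26.3 to 37.7% in WT paws on P0. Tyrp1 took 12.8 to 13.8% in Krt9 null and 8.76 to 15.2% in WT paws on P3, and 0.824 to 6.25% in Krt9 null and 1.87 to 3.27% in WT paws on P0. Dct and Pmel, by contrast, kept overlapping shares, with Dct at 28.0 to 37.2% over all P3 and 24.6 to 36.6% over all P0 libraries.

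**Figure D3:**
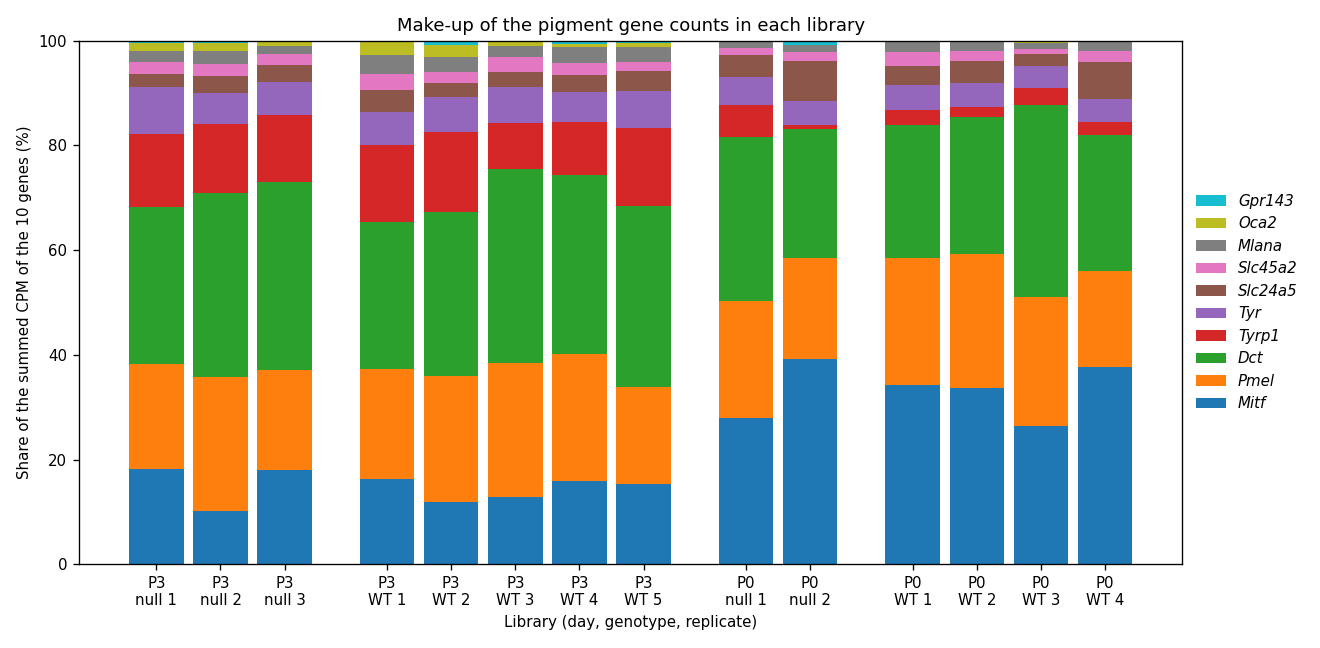
Share in percent of the summed CPM of the 10 pigment genes taken by each gene (stacked bars from 0 to 100%), 1 bar per library, grouped by day and genotype. The Mitf segment is 10.2 to 18.2% on P3 and 26.3 to 39.1% on P0, and the Tyrp1 segment is 8.76 to 15.2% on P3 and 0.824 to 6.25% on P0.

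Between the genotypes no pigment gene passed the test on either day. Beside 0.00463% of all genes called on each day (1 gene), 0 of the 10 were called by edgeR, DESeq2 or limma voom. On P3 no member had an unadjusted p under 0.05, 6 of 10 log2 fold changes of Krt9 null over WT were above 0, and they ran from -0.59 (Gpr143) to 0.52 (Oca2), with a median of 0.08 beside -0.01 over all genes. Every member overlapped in range between the genotypes on P3, where 2.56% of all genes did not. Tyr was at a fold of 1.14 (95% CI 0.827 to 1.57) and Mlana at 0.738 (0.441 to 1.24), with 3 against 5 libraries. Gpr143 was at -0.59 (95% CI -2.11 to 0.94) and Oca2 at 0.52 (-0.86 to 1.90) on the log2 scale. The direction on P3 differed between the column blocks: 9 of 10 differences were above 0 in block A, with 1 Krt9 null library, and 0 of 10 in block B, with 2 (medians 0.39 and -0.30).

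On P0, 9 of 10 fitted differences of Krt9 null over WT were above 0, with a median of 0.34, and only Slc24a5 had an unadjusted p under 0.05. Slc24a5 was at 2.61 and 3.93 CPM in Krt9 null paws and 1.29 to 2.97 CPM in WT paws (log2 fold change 0.82, 95% CI 0.06 to 1.59, edgeR's adjusted p = 0.831), and its ranges overlapped. Tyr and Mitf were the members whose ranges did not overlap, 2 of 10, beside 11.3% of all genes tested, so this count says little about the members. Tyr was at 3.21 and 2.42 CPM in Krt9 null and at most 2.32 CPM in WT paws, a log2 fold change of 0.50 (95% CI -0.06 to 1.06, adjusted p = 0.836). Mitf was at 17.1 and 20.3 CPM in Krt9 null and at most 15.8 CPM in WT paws, at 0.38 (95% CI -0.01 to 0.78, adjusted p = 0.833). Gpr143 was at 1.36 (95% CI -0.64 to 3.35), with 16 counts in Krt9 null replicate 2 and 2 in Krt9 null replicate 1, and at -0.83 without replicate 2. Above 0 were 7 differences in block A and 8 in block B, and 5 of the 10 members had the same sign in both. Osteoclast markers, of a cell type that also uses Mitf, summed to 841 to 1325 CPM in Krt9 null and 1305 to 2301 CPM in WT paws on P0, with 0 of 10 called, and their part in the Mitf values was not tested.

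The interaction, the genotype difference on P3 minus that on P0, had 0 members called beside 0% of all genes (0 of 21619) in edgeR, with 1644 genes at an unadjusted p under 0.05. DESeq2 and limma voom also called 0 members, and over all genes they called 87 and 0. Slc24a5 had the only unadjusted p under 0.05, at -1.09 (SE 0.48, edgeR's adjusted p = 0.638). Tyr was at -0.31 (95% CI -1.04 to 0.42) and Gpr143 at -1.94 (95% CI -4.41 to 0.52). The larger number of calls for day in WT than in Krt9 null paws is therefore not shown to be a difference between the genotypes. Averaged over the days, 0 members were called, beside 0.00925% of all genes, 0 had an unadjusted p under 0.05, and the median was 0.22.

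**Figure D4:**
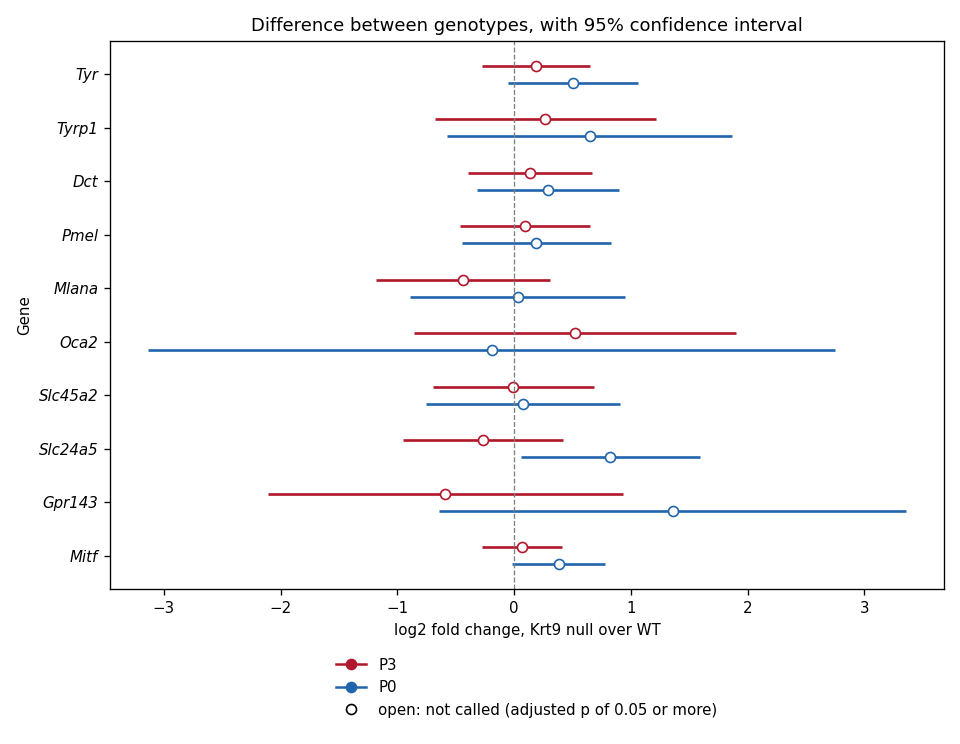
Fitted log2 fold change of Krt9 null over WT (horizontal axis) for each pigment gene, with 95% confidence intervals as lines, on P3 (upper) and P0 (lower); all points are open because none passed an adjusted p of 0.05. On P3 the values run from -0.59 (Gpr143) to 0.52 (Oca2), and on P0 the interval of Slc24a5, 0.06 to 1.59, is the one that leaves out 0.

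Further genes of the pigment system were read from lists. Of 28 melanosome biogenesis and transport genes, 0 were called between the days in Krt9 null paws by edgeR (9 at an unadjusted p under 0.05, median log2 fold change 0.24), and 4 rose and 1 fell in WT paws (median 0.08), where 8.49% of all genes were called higher and 8.07% lower. Over all genes 15.9% were at an unadjusted p under 0.05 for day in Krt9 null paws. Tspan10, a tetraspanin, and Trpm1, a cation channel whose gene is a known Mitf target, had the smallest adjusted p, at log2 fold changes of 2.38 (adjusted p = 0.00325) and 2.03 (adjusted p = 0.00334) in WT paws. Trpm1 was at 11.5 ± 4.40 CPM in Krt9 null and 10.96 ± 3.08 CPM in WT paws on P3, and at 4.19 ± 1.58 CPM in Krt9 null and 2.63 ± 1.44 CPM in WT paws on P0 (SD, n = 3, 5, 2 and 4). Rab27a, the small GTPase that carries melanosomes to the cell edge, was at 0.72 (adjusted p = 0.0136), and Hps5, a subunit of the BLOC-2 trafficking complex, at 0.49 (adjusted p = 0.0191). The gene that fell was Dtnbp1, a subunit of BLOC-1, chosen for mention after its value was seen (-0.42, adjusted p = 0.0451).

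Of 15 lineage regulators and receptors, 0 were called in Krt9 null paws (2 at an unadjusted p under 0.05, median -0.16), and 2 rose and 1 fell in WT paws (median -0.00135), counts near the all-gene shares of 8.49% higher and 8.07% lower. Mc1r, the melanocortin receptor that switches melanocytes to eumelanin, rose in WT paws by 2.04 (adjusted p = 0.00374), and Irf4, a factor that raises Tyr expression together with Mitf, by 0.88 (adjusted p = 0.0158). Erbb3, a neuregulin receptor of neural crest cells, fell by 0.36 (adjusted p = 0.0324). Mc1r was at 1.61 to 2.84 CPM in Krt9 null and 1.52 to 3.88 CPM in WT paws on P3, and at 0.831 and 1.41 CPM in Krt9 null and 0.286 to 0.676 CPM in WT paws on P0. Of Tfe3, Tfeb and Tfec, the paralogs of Mitf, 0 of 3 were called in either genotype (medians 0.29 in Krt9 null and 0.43 in WT paws).

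Of the signals that reach melanocytes from other skin cells, 12 were tested, and 0 were called in Krt9 null paws (4 at an unadjusted p under 0.05, median -0.25), while 2 rose and 4 fell in WT paws (median -0.26), beside the same 8.49% and 8.07% of all genes. Nrg1, the ligand of Erbb3, fell in WT paws by 2.52 (adjusted p = 0.000411) and Wnt10b by 0.53 (adjusted p = 0.0144). Edn3, a growth factor of melanoblasts, rose by 0.53 (adjusted p = 0.0254). Dkk1, a Wnt antagonist that palm and sole fibroblasts secrete in humans and that lowers melanocyte pigmentation there, rose by 0.92 (adjusted p = 0.00714). Retinal pigment epithelium markers had 2 of 6 genes past the filter and 0 called, with sums of 2.702 to 4.29 CPM in Krt9 null and 2.84 to 6.23 CPM in WT paws on P3, and 3.79 to 6.57 CPM in Krt9 null and 2.22 to 4.16 CPM in WT paws on P0. In the genotype comparisons and the interaction edgeR called 0 of the 122 genes tested in the 10 lists. At an unadjusted p under 0.05 were 18 on P3, beside 6.67% of all genes, and 11 on P0, beside 5.96%. There were 12 for the average over days, beside 4.45%, and 11 for the interaction, beside 7.60%. Of the 18 on P3, 6 were of the 10 interfollicular keratinocyte markers and 5 of the 10 osteoclast markers (list medians 0.35 and -0.77). For the average over days, 7 of the 12 were osteoclast markers (list median -0.77).

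Markers of other cell types in the paw were read in the same libraries. Between the days, 8.49% of all genes tested were called higher and 8.07% lower in WT paws. In Krt9 null paws 0.338% were called higher and 0.430% lower, and 15.9% were at an unadjusted p under 0.05. Of 20 hair follicle and hair shaft markers tested, 0 were called in Krt9 null paws (13 at an unadjusted p under 0.05, median 2.18), and 11 rose and 0 fell in WT paws (median 1.88). Krt28, Krt75, Krt71 and Krt25, keratins of the inner root sheath and companion layer, rose in WT paws by 4.10 (adjusted p = 0.00158), 3.28 (adjusted p = 0.00459), 4.23 (adjusted p = 0.00686) and 3.83 (adjusted p = 0.00737). The follicle markers summed to 814 to 2721 CPM in Krt9 null and 605 to 3234 CPM in WT paws on P3, and to 287 to 589 CPM in Krt9 null and 268 to 383 CPM in WT paws on P0, and none was at 0. Schwann cell markers, of another neural crest lineage, had 0 of 12 called in Krt9 null paws (3 at an unadjusted p under 0.05, median 0.17) and 3 higher in WT paws (median 0.28). They summed to 612 to 951 CPM in Krt9 null and 640 to 934 CPM in WT paws on P3, and to 581 to 582 CPM in Krt9 null and 508 to 588 CPM in WT paws on P0. Of 10 interfollicular keratinocyte markers 0 were called in Krt9 null paws (3 at an unadjusted p under 0.05), and 3 fell in WT paws, led by Lor (-1.05, adjusted p = 0.00172). The sums of these markers overlapped between the days, at 23634 to 48921 CPM in Krt9 null and 20497 to 28336 CPM in WT paws on P3, and 16750 to 27439 CPM in Krt9 null and 21315 to 46523 CPM in WT paws on P0. Of 10 osteoclast markers, Calcr alone was called (-2.19, adjusted p = 0.0194), in WT paws, and their sum was 726 to 1871 CPM in Krt9 null and 1441 to 2428 CPM in WT paws on P3. The part of any of these cell types in the pigment gene values was not tested.

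Within P3 the libraries with the highest pigment sums had higher follicle sums than those with the lowest, with exceptions among the others. Krt9 null replicate 2 and WT replicates 2 and 1 held the highest pigment sums, 153, 148 and 130 CPM, beside follicle sums of 1822, 2481 and 3234 CPM. Among these libraries the follicle sums ran in the opposite order. Krt9 null replicate 3 and WT replicate 4 held the lowest, 87.1 and 88.3 CPM, beside follicle sums of 814 and 605 CPM. Krt9 null replicate 1 stood apart from these, with 114 CPM beside a follicle sum of 2721 CPM, and so did WT replicate 3, with 116 CPM beside 745 CPM. WT replicate 5 held 109 CPM beside a follicle sum of 1387 CPM. Oca2 and Krt71, a single marker of the follicle list, split the WT paws of P3 alike. Replicates 1 and 2 held 3.22 and 3.46 CPM of Oca2 and 714 and 541 CPM of Krt71. The other WT paws held 0.598 to 0.824 CPM of Oca2 and 114 to 285 CPM of Krt71. Not every follicle marker split so: Krt33b was at 127 and 70.8 CPM in WT replicates 1 and 2, and at 115 CPM in WT replicate 5.

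**Figure D5:**
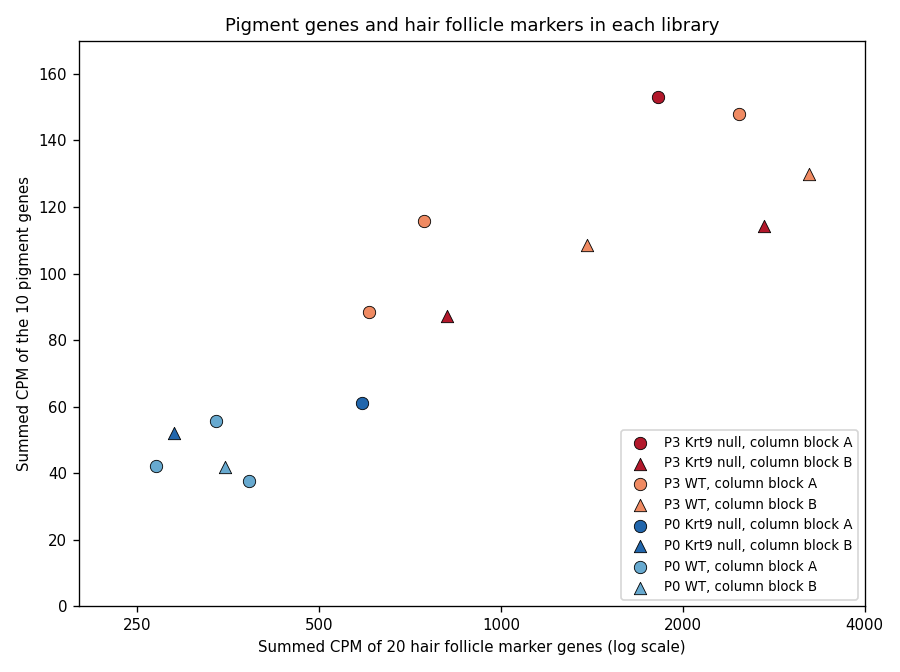
Summed CPM of the 10 pigment genes (linear axis from 0) against the summed CPM of 20 hair follicle markers (log axis), 1 point per library, coloured by day and genotype, with circles for column block A and triangles for block B. The P3 libraries lie at pigment sums of 87.1 to 153 CPM and follicle sums of 605 to 3234 CPM, and the P0 libraries at 37.5 to 61.0 CPM and 268 to 589 CPM.

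With the 4 group means taken out, most pairs of the 10 genes still varied in the same direction across the 14 libraries. Of 45 pairs, 42 had a Pearson correlation of residual log2(CPM + 0.5) above 0 and 20 one above 0.5, with a median of 0.48 and a range of -0.05 to 0.84. Slc24a5 was near 0 with Tyrp1 (-0.01), Dct (0.01) and Pmel (0.06), and so was Mitf with Dct (-0.05) and Pmel (-0.03). These points share library, depth and scaling factor, no such values are given for pairs of other genes, and the values are a description. Tyr had the highest median correlation with the other members, 0.63, and Slc24a5, the gene overlapped by Myef2, the lowest, 0.22. The 8 named genes of 15013 compared whose residuals were most like the mean standardised residual of the pigment genes over the 14 libraries were Ces4a (Pearson correlation 0.96), Galnt14 (0.95), Krt35 (0.94), Procr (0.94), Pnpla5 (0.92), Scd1 (0.92), Ccdc80 (0.92) and Bambi (0.91). Krt35 is a hair keratin and is on the follicle list. Averaged over the genotypes, Ces4a was higher on P3 by 4.51 (log2, adjusted p = 0.00248), while Galnt14 (0.76, adjusted p = 0.227) and Ccdc80 (0.14, adjusted p = 0.396) were not called.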

How the data were processed

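The members, lists and tests were chosen with earlier results of these data known. Per the labels' protocols, RNA of whole paws was isolated with TriZOL, and ribosomal RNA depletion, library preparation and sequencing were done by a contractor. The deposited table holds raw read counts per gene, made by the authors and not normalized. Per the submitters' processing notes the tools were STAR 2.7.10a, featureCounts, edgeR and limma on GRCm39, with strand setting and filters not stated. IDs were matched to symbols in an annotation of another build (GENCODE M21, GRCm38), which matched 52073 of 56691. Members, lengths and exon overlaps come from it, and promoters from RefSeq (GRCm38.p6). The other 4618 IDs stayed in the fit.

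Counts were filtered by edgeR's filterByExpr (21619 genes), scaled by TMM and fitted by edgeR 4.0.16 quasi-likelihood (robust) in R 4.3.3. A single model held the 4 groups and labelled sex for the 14 libraries (9 residual degrees of freedom, 7 contrasts). P-values were adjusted by Benjamini-Hochberg over all genes tested, and a gene was called under 0.05. The fit was tested on simulated counts for the day averaged over genotypes alone. The other contrasts, and changes in genes of low counts, were not covered there. All 10 members passed the filter, and 8 would pass on the P0 libraries alone: Oca2 and Gpr143 passed through P3, so their calls describe these levels and no more. Libraries were taken as separate samples, as labelled, so p-values measure the spread between these samples, which may in part be technical.

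Alternatives were DESeq2 1.42.0, its size factors, limma 3.58.1 voom, library size only, no filter, 1 CPM in 4 libraries, no sex term, litter as a block, only the groups compared, the column block as a term or alone (differences of mean log2(CPM + 0.5), no test), the 2 WT libraries of P3 litter 2 summed, other pseudocounts in the correlations, and each library left out. Litter blocks were fitted in limma voom and not in edgeR. The pairing comes from the labels, which give litter numbers that recur across days. limma's duplicateCorrelation gave 0.555 with litters kept apart by day and -0.05 with equal numbers joined over the days. Residual correlations of libraries with equal numbers ran from -0.38 to 0.12. Within a day, Krt9 null replicate 1 and WT replicate 1 of P0 shared a litter, with a residual correlation of -0.18. So did WT replicates 2 and 3 of P3 (-0.11), and the 0.555 rests on these pairs alone. The 10 lists are melanosome biogenesis and transport, lineage regulators and receptors, the other MiT factors, signals to melanocytes, and markers of hair follicle, interfollicular keratinocytes, Schwann cells, osteoclasts, mast cells and retinal pigment epithelium. All members were named, of each list up to 4 called genes by adjusted p, and the 8 genes most alike by residual correlation with a mean of at least 0.5 CPM. List genes Asip and Krt85 were not analysed here. One called list gene is not reported here. Figures used matplotlib.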

Additional observations from a re-analysis of the deposited data

Results flagged for a closer look

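Within groups of 4 or 5 libraries, the gap of the most distant library to its neighbour, divided by the group's range, passed Dixon's 95% critical value for 2 of the 20 gene and group combinations tested, where chance flags about 1 in 20. For Dct in WT paws of P0 the ratio was 0.855 (critical value 0.829): replicate 3 held 20.4 CPM beside 9.48 to 11.1 CPM in the others. For Gpr143 in WT paws of P3 it was 0.746 (critical value 0.710): replicate 2 held 1.18 CPM, from 49 counts, beside 0.385 to 0.587 CPM in the others. Without that library the Gpr143 day difference in WT paws was 2.32 (log2, adjusted p = 0.0674 in edgeR), and without replicate 3 of P0 Dct was called in Krt9 null paws (1.36, adjusted p = 0.0475).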

How the results depend on the processing

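No called value of a pigment gene changed sign under any of the alternatives run. The number of the 10 genes called for day in Krt9 null paws, 3 in the reported fit, was 7 with no filter, 7 with DESeq2, 7 with the column block as a term, 1 with litter within a day as replicate block, and 0 with no sex term or only the groups compared. Leaving out 1 library at a time gave 0 to 4 there, 7 to 9 for day in WT paws and 7 to 8 for the average over genotypes, where the reported counts were 9 and 7. All genotype and interaction counts stayed at 0 under the alternatives run. The litter blocks were fitted in limma voom, which without a block already did not call Oca2 in Krt9 null paws (5.04, adjusted p = 0.153). The replicate block by litter within a day changed no other call than those of Krt9 null paws and Gpr143. By litter number across days it also let Dct pass in Krt9 null paws (1.37, adjusted p = 0.0464), and Oca2 did not pass (5.08, adjusted p = 0.148). Values that changed sign, none of them called, were counted over the alternatives of each member. They were 29 of 279 for genotype on P3, 16 of 277 for genotype on P0 and 23 of 269 for genotype averaged over days. For the interaction they were 24 of 269, for day in Krt9 null paws 7 of 279 and for the average day 2 of 269. Tyrp1 (genotype, P0), for example, ran from -1.23 to 1.51. Only some of these values are given here, on the log2 scale. With no sex term Oca2 on P3 (genotype) was -0.056, and with litter within a day as replicate block Slc24a5 (day, Krt9 null) was -0.00052. In block A alone Gpr143 was -0.090 (genotype, P0) and 0.052 (interaction), and Mlana 0.27 (genotype, P3). In block B alone Tyr was -0.066 and Oca2 -0.30 (genotype, P3), and Slc24a5 -0.40 and Gpr143 -0.26 (day, Krt9 null). Leaving out 1 library at a time gave -0.14 to 1.10 for Oca2 (genotype, P3), -0.18 to 0.23 for Slc24a5 and -0.16 to 3.04 for Gpr143 (day, Krt9 null), -0.83 to 2.37 for Gpr143 (genotype, P0), -2.87 to 0.33 for Gpr143 (interaction), -0.28 to 0.11 for Mitf (day, Krt9 null) and -0.036 to 0.16 for Mitf (average day). Scaling by library size only moved the median of all genes to 0.11 for genotype on P0, 0.10 for day in WT paws and -0.18 for the interaction, against -0.00, -0.01 and -0.02 with TMM. Over all genes, the 166 called for day in Krt9 null paws became 0 without Krt9 null replicate 2 of P0, 2 without Krt9 null replicate 1 of P3, 1 with only the groups compared, and up to 1692 with no filter. The 3581 for day in WT paws became 1629 without WT replicate 3 of P0 and up to 5570 with the column block as a term, and the 3728 for the average day 912 without Krt9 null replicate 2 of P0 and up to 5701 with that term. The 1 called between genotypes on P3 became 631 with no filter, 26 with DESeq2 and 200 without Krt9 null replicate 2 of P3, the 1 on P0 became 182 with no filter, and the interaction's 0 became 617 with no filter, 87 with DESeq2 and 47 without WT replicate 4 of P0. The causes were not tested. Depth limits Oca2 and Gpr143 on P0, with at most 16 counts per library.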
